A study of Mus musculus with 12 samples.

Results

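The translation initiation and elongation factors were examined in the brain and the liver of aged mice under periodic heat stress. All rows of the count table whose symbol starts with Eif or Eef were taken, except Eif2ak3, which gave 72 of 25239 genes. Each tissue was sequenced in 3 control and 3 heat stress libraries, 12 in all. All mice were male C57BL6/J WT animals aged 24 months, and the heat stress group spent 3 hours per day for 15 days at 40 ± 0.5 °C and a relative humidity of 60 ± 5%, while the control group did not. Tissues were collected after the last exposure, at 24 months plus 16 days. The brain region is not given, each library is a replicate, and which brain library and which liver library came from the same mouse is not stated.

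Translation initiation brings the initiator tRNA, carried by eIF2, and the small ribosomal subunit to the start codon of an mRNA, with eIF3 as a scaffold and the eIF4 factors at the 5′ cap. Phosphorylation of eIF2 by stress-sensing kinases, 3 of which are members here, lowers initiation by blocking its recharging on eIF2B, and the 4E-BPs lower it by holding the cap-binding protein eIF4E when mTOR activity is low. During elongation eEF1A delivers aminoacyl-tRNA to the ribosome and eEF2 moves the ribosome along the mRNA. Transcript levels say nothing on the phosphorylation of these factors.

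Of the 72 members, 5 had no count in any library (Eif3j1, Eif3j2, Eef1akmt4-ece2, Eif4a3l1 and Eif2c5), and Eif4e1b and Eef1akmt3 had totals of 1 and 13 counts over the 12 libraries. After the filter on low counts, 64 members were tested in brain, 63 in liver and 65 across both tissues. Eef1akmt4 was tested in liver and not in brain, and Eef1a2 and Eif5a2 were tested in brain and not in liver. The members together took between 1.14% and 1.27% of all counts in control brain, between 1.32% and 1.495% in heat stress brain, between 0.991% and 1.19% in control liver and between 1.12% and 1.44% in heat stress liver. Eef1a1 alone had between 30692 and 103622 counts per library.

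Depth lay between 10466198 and 15609040 counts per library. Neuronal markers summed to between 6480 and 9132 CPM (counts scaled to a normalized library total) in brain and to between 13.7 and 34.3 CPM in liver. Hepatocyte markers summed to between 76235 and 121267 CPM in liver and to between 2.67 and 16.7 CPM in brain. In liver, skeletal muscle markers stood at 544, 3.75 and 1.21 CPM in the control libraries and 4.09, 2879 and 8.83 CPM in the heat stress libraries. Control replicate 1 and heat stress replicate 2 of liver thus stood apart. In brain, markers of the striatum were at 475, 806 and 469 CPM in the control libraries and 1075, 770.0 and 1732 CPM in the heat stress libraries, those of the choroid plexus at 1550.0, 1258 and 2508 CPM in the control libraries and 651, 1138 and 262 CPM in the heat stress libraries, and those of the endothelium at 206, 103 and 118 CPM in the control libraries and 68.7, 85.4 and 66.8 CPM in the heat stress libraries. No marker of these 3 lists was at 0 in any brain library. In bulk tissue, fewer cells of a type cannot be told apart from less RNA per cell. The column names of liver control replicate 2 and liver heat stress replicates 1 and 3 carry the suffix 2nd, which the sources used here do not explain.

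Several factors exist as pairs of closely related genes, and the tissues differed in which gene of a pair supplied the transcripts. The clearest cases were eEF1A, with the widely expressed Eef1a1 and the neuronal and muscle form Eef1a2, and eIF5A, with Eif5a and Eif5a2. RefSeq promoters of the 3 genes that the comparison turns on (GRCm38.p6, 250 bases before the start, written 5′ to 3′ on the gene's strand) are printed below, with matches to the motifs searched in capitals. They lie at chr9:78481725-78481974 on the minus strand (Eef1a1), chr2:181157016-181157265 on the minus strand (Eef1a2) and chr3:28781027-28781276 on the plus strand (Eif5a2).
Eef1a1: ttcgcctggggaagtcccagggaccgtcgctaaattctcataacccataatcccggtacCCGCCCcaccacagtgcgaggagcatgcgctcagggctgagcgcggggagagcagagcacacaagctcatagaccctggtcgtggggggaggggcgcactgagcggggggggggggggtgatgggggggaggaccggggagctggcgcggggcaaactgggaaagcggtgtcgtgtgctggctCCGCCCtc
Eef1a2: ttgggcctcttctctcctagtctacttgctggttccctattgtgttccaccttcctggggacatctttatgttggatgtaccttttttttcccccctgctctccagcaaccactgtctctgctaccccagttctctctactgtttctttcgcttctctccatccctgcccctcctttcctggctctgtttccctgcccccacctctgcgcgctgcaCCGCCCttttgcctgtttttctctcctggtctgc
Eif5a2: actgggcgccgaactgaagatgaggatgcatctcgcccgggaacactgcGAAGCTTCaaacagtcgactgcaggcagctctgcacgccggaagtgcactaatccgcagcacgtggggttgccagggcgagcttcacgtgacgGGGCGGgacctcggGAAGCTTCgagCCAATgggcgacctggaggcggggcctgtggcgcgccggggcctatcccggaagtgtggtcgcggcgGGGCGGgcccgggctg

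The windows held 18 CpG dinucleotides for Eef1a1, 4 for Eef1a2 and 27 for Eif5a2, against a median of 6 over the 32817 promoter windows of all genes. Their GC content was 68%, 54% and 68.4%. Motifs were searched as exact letters on both strands. The GC box GGGCGG was found 2 times in the window of Eef1a1, 1 time in that of Eef1a2 and 2 times in that of Eif5a2. The window of Eif5a2 also held CCAAT 1 time and the heat shock element core GAANNTTC 2 times, and none of the 3 windows held TATAAA, TGACGTCA or TTCNNGAA. A promoter entry was found for 55 of the 72 members, with 70 windows. GGGCGG occurred in 67.1% of these windows and in 32.7% of all windows, CCAAT in 24.3% and 33.8%, and TATAAA in 7.14% and 12.4%. TGACGTCA occurred in 0% and 1.55%, GAANNTTC in 10% and 6.69%, and TTCNNGAA in 5.71% and 7.16%. GAANNTTC and TTCNNGAA read the same on both strands and did not share bases in the windows printed here. These are matches of letters only.

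Eef1a2 supplied 28.4% ± 7.09 (SD, n = 3) of the Eef1a1 and Eef1a2 counts in control brain and 18.1% ± 2.10 (SD, n = 3) in heat stress brain. The control brain libraries were at 36.1% (35.7 to 36.6%), 22.3% (21.9 to 22.6%) and 26.7% (26.3 to 27.2%), with exact Clopper-Pearson 95% intervals in parentheses. The heat stress brain libraries were at 19.7% (19.3 to 20.0%), 15.8% (15.4 to 16.1%) and 19.0% (18.7 to 19.4%). All heat stress values lay below all control values, and an exact two-sided permutation test gave p = 0.1, the smallest that 3 against 3 libraries allow (adjusted p = 0.273 over 30 share tests). Shares of counts within a pair do not depend on the scaling of the libraries, and the intervals cover counting error only. The shares are not corrected for GC content, which was 60.6% for Eef1a2 and 47.4% for Eef1a1 in the longest transcript. Across the members tested in brain, the log2 fold change for heat stress had a Spearman correlation of -0.549 with GC content. The part of GC content in this share was not tested. The levels behind this share lay in opposite directions, with Eef1a1 at 2130.0, 3216 and 2484 CPM in the control libraries and 3512, 4124 and 3398 CPM in the heat stress libraries, and Eef1a2 at 1206, 921 and 907 CPM in the control libraries and 859, 771 and 799 CPM in the heat stress libraries. Neither gene passed the test on its own. Neuronal markers summed to 9132, 6842 and 6515 CPM in the control brain and 7003, 6480 and 7150 CPM in the heat stress brain libraries. Control replicate 1 had both the highest sum and the highest share of Eef1a2. Of the 9 neuronal markers, 8 had a log2 fold change below 0 and 1 above 0. The other marker differences between the brain groups given above apply here as well. The part of any of these markers in this share was not tested. Eef1a1 also has many processed pseudogenes, and how reads shared between genes were counted is not given in the sources used here.

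In liver, Eef1a2 had 133, 1 and 0 counts in the control libraries and 1, 480 and 2 counts in the heat stress libraries. The 133 and 480 counts were those of the libraries with skeletal muscle transcripts. Control replicate 1, with 133 counts, also had the highest sum of neuronal markers in liver. That sum was 34.3 CPM, against 13.7 to 18.6 CPM in the other liver libraries. The part of muscle or neuronal transcripts in the result was not tested. The control library without a count of Eef1a2 had 52548 counts of Eef1a1, which allows a share of up to 0.00571% by the limit of 3 counts (the exact 95% interval ends at 0.00702%). In the 4 liver libraries without raised muscle markers the share of Eef1a2 was at most 0.00226% (0.000274 to 0.00817%, exact 95% interval).

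Eif5a2 had 966, 1062 and 1264 counts in control brain and 8, 2 and 2 counts in control liver, and 9, 10 and 4 counts in heat stress liver. Its share of the Eif5a pair was 23.6% ± 3.96 (SD, n = 3) in control brain and 25.0% ± 3.80 in heat stress brain, against 0.0827% ± 0.0526 in control liver and 0.157% ± 0.0675 in heat stress liver. The control and heat stress libraries overlapped within each tissue. eIF5A, which carries the modified residue hypusine, helps ribosomes past stalling sequences.

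**Figure D1:**
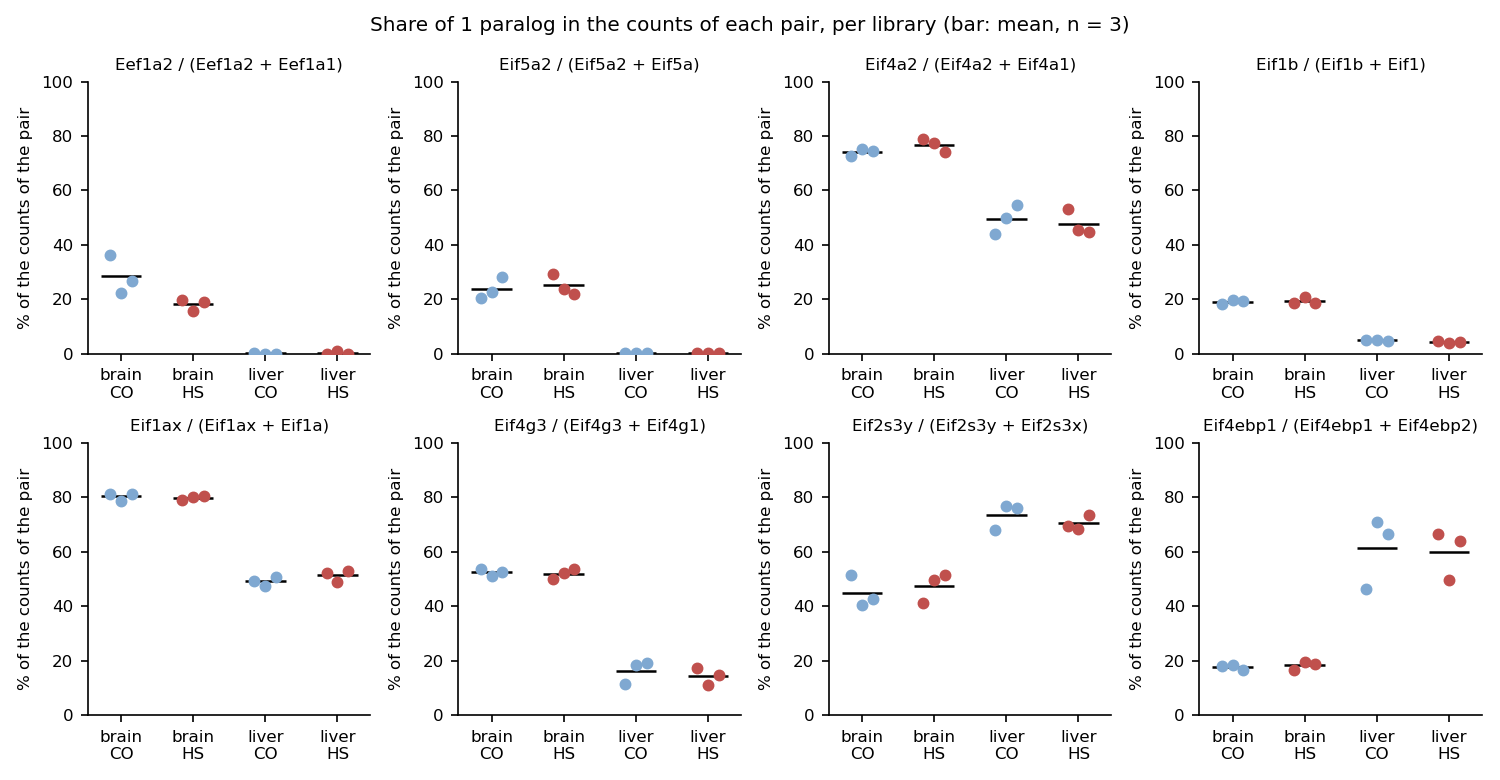
Share of each gene in the summed counts of its pair, in percent on the vertical axis, for each library (points) of control brain, heat stress brain, control liver and heat stress liver, with bars for the group means. Eef1a2 and Eif5a2 lie between 15.8% and 36.1% in brain and at or below 0.774% in liver.

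The other pairs were shared by both tissues in different proportions. Eif1ax, the X-linked form of the scanning factor eIF1A, supplied 80.5% ± 1.54 of its pair in control brain and 49.2% ± 1.70 in control liver (SD, n = 3). Eif4a2 of the RNA helicase eIF4A supplied 74.1% ± 1.28 in control brain and 49.3% ± 5.35 in control liver, and Eif1b supplied 19.0% ± 0.826 and 4.92% ± 0.241 of the eIF1 pair. Eif4g3 made up 52.4% ± 1.31 of the Eif4g1 and Eif4g3 counts in control brain and 16.3% ± 4.24 in control liver. The direction was opposite for Eif2s3y, the Y-linked gene of the gamma subunit of eIF2, with 44.8% ± 5.77 of its pair in control brain and 73.6% ± 4.88 in control liver. Eif4ebp1 made up 17.7% ± 0.962 of the Eif4ebp1 and Eif4ebp2 counts in control brain and 61.3% ± 13.1 in control liver. In each of these 6 pairs the libraries of the tissues did not overlap (exact permutation p = 0.1, adjusted p = 0.273). For Eif4ebp3 against Eif4ebp2 they did, with 30.7% ± 7.35 and 39.5% ± 13.1 (exact permutation p = 0.3, adjusted p = 0.529). That overlap rests on liver control replicate 1, the library with muscle transcripts, at 24.4%, whereas the other 2 liver control libraries were at 46.8% and 47.4%, above the highest brain control library at 38.4%.

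In liver, the cap-binding pair Eif4e3 and Eif4e was the one whose share did not overlap between control and heat stress. The number of such separations was not beyond the rate given at the end of this paragraph. Eif4e3 stood at 6.06% (4.49 to 7.98%), 7.19% (5.21 to 9.63%) and 9.65% (7.32 to 12.4%) in the control libraries (exact 95% intervals). In the heat stress libraries it stood at 14.9% (12.2 to 17.9%), 13.6% (10.95 to 16.7%) and 11.3% (8.68 to 14.5%). All heat stress values were above all control values (exact permutation p = 0.1, adjusted p = 0.273), and these shares rest on between 41 and 94 counts of Eif4e3 per library. In brain the share was 11.7% ± 1.69 in the control and 10.1% ± 0.680 in the heat stress group, and the groups overlapped. Control brain lay above control liver, which had 7.64% ± 1.84 (exact permutation p = 0.1, adjusted p = 0.273). Of the 20 comparisons of heat stress with control among the pairs, Eef1a2 in brain and Eif4e3 in liver were the 2 without overlap. Without any difference, 3 against 3 libraries separate with a probability of 0.1 in each comparison. A count of 2 in 20 is no more than that rate gives.

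Control brain and control liver were then compared for each member. By edgeR's quasi-likelihood test with TMM normalization (a trimmed mean of log ratios between libraries) and Benjamini-Hochberg adjustment over all genes, 8 of 65 members were higher and 40 lower in brain at an adjusted p under 0.05. Of all 15824 genes tested, 80.4% were called, 44.2% higher and 36.1% lower. Counted in both directions together, the members were called no more often than genes at large. Under TMM, however, a larger share of the members than of all genes was lower, and a smaller share higher. The counts of members include Eef1a2 and Eif5a2, which passed the filter on low counts through brain alone, and Eef1akmt4, which passed through liver alone. A difference between the tissues was thereby built into these 3 genes, and their values are given as a description with no test. The median log2 fold change of the members was -0.91, and that of all genes 0.24. The split between higher and lower depended on the scaling. The 10 highest genes of a library took between 17.5% and 19.7% of the counts in liver and between 4.71% and 9.71% in brain. With RLE factors 11 were higher and 40 lower (45.8% and 35.1% of all genes), with upper-quartile factors 10 and 40 (45.5% and 35.4%), and with library size alone 28 and 9 (65% and 19.8%). After correction for transcript length and GC content they were 9 and 44 (37.9% and 45.5%). Relative to the median of all genes the members were lower by 1.16 with TMM and by 1.14 under each of the other 3 scalings.

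In elongation, Eef1a2 had a fitted log2 fold change of 7.17, with a range of 7.17 to 8.35 over the scalings. Without liver control replicate 1 its value was 13.26, a fitted value that rests on 1 count in liver control replicates 2 and 3 together and is no bound. Eef1a1 was lower in brain, at -1.90 (SE 0.27, adjusted p = 1.64e-05), and at -0.83 with library size alone. Per kilobase of transcript, Eef1a1 was at 995 ± 205 CPM in control brain and 3720.4 ± 439 CPM in control liver (SD, n = 3, scale shared by the tissues), Eef1a2 at 332 ± 55.3 and 2.21 ± 3.78 CPM, and Eef2 at 313 ± 25.0 and 407 ± 118 CPM. Eefsec, which delivers selenocysteine tRNA, and Eef2kmt, a methyltransferase of eEF2, were lower in brain, with log2 fold changes of -1.90 and -1.82. Eef1akmt4, a methyltransferase of eEF1A, had 7, 10 and 5 counts in control brain and 72, 80 and 59 counts in control liver, and a fitted value of -4.33. Eef2k, the kinase that inhibits eEF2, was higher in brain by 1.33 (SE 0.24, adjusted p = 0.000200), but was called lower, at -0.36, after correction for transcript length and GC content.

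Eif5a2 had a fitted log2 fold change of 6.99, with a range of 6.99 to 8.08 over the scalings, and Eif5a was lower, at -1.40 (SE 0.17, adjusted p = 3.31e-06), and at -0.31 and no longer called with library size alone. Levels per kilobase in control brain and control liver were 11.9 ± 2.57 and 0.0875 ± 0.0664 CPM for Eif5a2, and 134 ± 15.1 and 353 ± 44.1 CPM for Eif5a. Among the 4E-BPs, Eif4ebp1 stood at 2.16, 2.61 and 2.18 CPM in the control brain and 51.6, 52.8 and 44.9 CPM in the control liver libraries on the shared scale. The log2 fold change of Eif4ebp1 was -4.43 (SE 0.19, adjusted p = 1.47e-10), and it ranged from -4.43 to -3.34 over the 4 scalings. Eif4ebp3 was lower in brain, at -2.02 (SE 0.20, adjusted p = 3.48e-07), and Eif4ebp2 at -1.69 (SE 0.33, adjusted p = 0.000306), the latter at -0.56 and not called with library size alone.

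Of the eIF4 factors, Eif4g3, a form of the scaffold eIF4G, was higher in brain by 1.38 (SE 0.19, adjusted p = 1.07e-05), and Eif4e3 by 0.94 (SE 0.21, adjusted p = 0.00106). Eif4a1 was lower, at -1.43 (SE 0.16, adjusted p = 1.33e-06), and so was Eif4g1, at -1.28 (SE 0.32, adjusted p = 0.00210), though at -0.15 and not called with library size alone. Without liver control replicate 1, the library with muscle transcripts, Eif4g1 was at -0.73, Eif4ebp2 at -1.04 and Eefsec at -1.26. Eif4e itself was not called, at 0.26 (SE 0.14, adjusted p = 0.111), but was called higher with RLE factors (0.33) and library size alone (1.35) and lower after correction for length and GC content (-0.44). After the same correction Eif4g3 was called lower, at -0.71, and in heat stress mice the difference of Eif4e3 was 0.38 and not called.

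The 5 subunits of eIF2B, the exchange factor that recharges eIF2, were all at or below 0 in brain under TMM, from -1.29 for Eif2b1 and -1.09 for Eif2b4 through -0.95 for Eif2b3 and -0.76 for Eif2b5 to -0.07 for Eif2b2. All but Eif2b2 were called lower, against 36.1% of all genes. After correction for length and GC content Eif2b2 was called higher, at 0.47, and the others were called lower. With library size alone none of the 5 was called lower, and Eif2b2 (1.05) and Eif2b5 (0.32) were called higher, a setting in which 65% of all genes were called higher. Of the eIF2 subunits, Eif2s1 was at -1.33, Eif2s2 at -1.52, Eif2s3y at -1.76 and Eif2s3x at 0.06, and of these only Eif2s3y was called lower in brain under all 4 scalings, while Eif2s3x was called higher with library size alone (1.15). Of the eIF2 kinases, Eif2ak2 (PKR, which senses double-stranded RNA) was lower in brain, at -1.77 (SE 0.19, adjusted p = 1.21e-06), Eif2ak4 (GCN2, which senses uncharged tRNA) was higher by 0.46 (SE 0.14, adjusted p = 0.00851), and Eif2ak1 (HRI, which senses heme) was at -0.30 (SE 0.25, adjusted p = 0.279). Eif2ak1 was called higher with library size alone (0.82). After correction for length and GC content all 3 kinases were called lower, with Eif2ak4 at -0.89 and Eif2ak1 at -1.18, and without brain control replicate 3 Eif2ak4 was no longer called under TMM. All 12 tested eIF3 subunits lay below 0 under TMM, from -1.45 for Eif3e to -0.28 for Eif3f, where 54.4% of all genes lay above 0. Of these subunits 8 were called lower, against 36.1% of all genes. With library size alone none was called lower, and Eif3a, Eif3c, Eif3f and Eif3k were called higher, against 19.8% and 65% of all genes. The correction turned Eif3h to 0.21 and Eif3k to 0.30, neither called, while Eif3a and Eif3c were called lower, at -1.20 and -0.81.

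**Figure D2:**
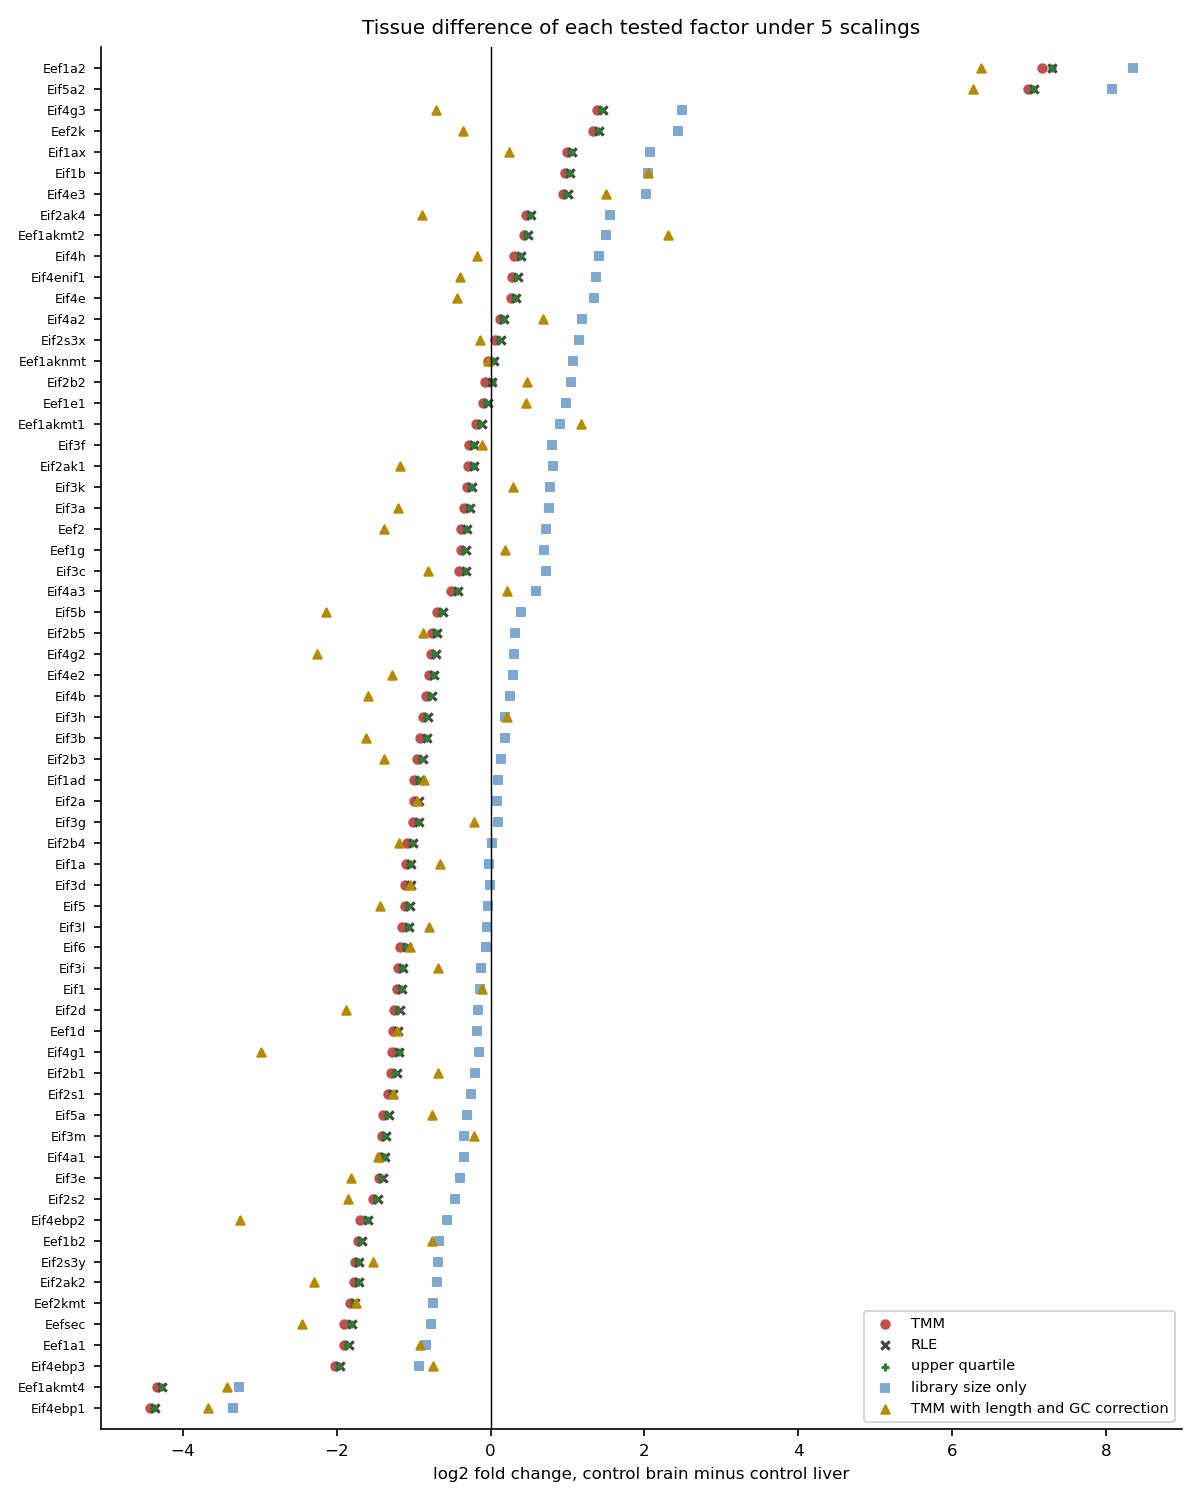
Log2 fold change of control brain against control liver (horizontal axis) for the 65 tested members (rows), with a symbol for each of 4 scalings and for TMM corrected for length and GC. Library size alone shifts all members to the right, while Eif4ebp1 at the bottom keeps its side of 0 under all 5. Eef1a2 and Eif5a2 at the top passed the filter on low counts through brain alone, and Eef1akmt4 at the bottom through liver alone. Their side of 0 was thereby built in and is shown as a description only.

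In brain, no member passed the adjusted threshold for heat stress against control. The lowest unadjusted p-values among the members higher in heat stress included those of Eif3e, Eif3m, Eef1b2 and Eif2s3y. In edgeR's quasi-likelihood test, adjusted by Benjamini-Hochberg, 0 of 64 members were called, as were 0% of 14806 genes, and the smallest adjusted p of a member was 0.17. At an unadjusted p under 0.05, 18 members were higher and 3 lower in heat stress, while 10% of all genes were higher and 10% lower. Control and heat stress libraries did not overlap in 21 members that were higher and 5 that were lower, against 12.9% and 12% of all genes. The log2 fold change was above 0 in 45 of the 64 members, against 49.7% of all genes, with a median of 0.16 for the members and -0.00297 for all genes. DESeq2 called 4 members higher (Eif3e, Eif3m, Eef1b2 and Eif2s3y, adjusted p between 0.0162 and 0.0404), where it called 1.41% of all genes higher.

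These counts depended on single libraries. At an unadjusted p under 0.05, 7 members were higher and 0 lower without control replicate 1, against 5.12% and 5.9% of all genes. Without control replicate 2 they were 23 and 4 (13.6% and 13.3% of all genes), and without control replicate 3 they were 9 and 5 (6.44% and 8.12%). Without heat stress replicate 1 they were 7 and 0 (6.84% and 7.12%), without heat stress replicate 2 they were 6 and 0 (4.85% and 6.23%), and without heat stress replicate 3 they were 19 and 2 (9.66% and 9.97%). Correction for length and GC content left 9 higher and 0 lower, against 6.84% and 5.3% of all genes. The 9 were Eif3e, Eif3f, Eif3h, Eif3i, Eif3k, Eif3m, Eif4b, Eef1b2 and Eef1e1, all among the 18. Across the 63 tested members with a known transcript, the log2 fold change had a Spearman correlation of -0.549 with GC content and -0.255 with length, against -0.301 and -0.377 across all genes. These are correlations across genes of the same 6 libraries, and genes are not independent replicates. The striatal, choroid plexus and endothelial markers given above differed with the groups in brain. All 9 striatal markers were above 0, 8 of them at an unadjusted p under 0.05, and all 5 endothelial and 5 of 8 choroid plexus markers were lower at that level. Their part in the result was not tested.

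Of the eIF3 subunits, 6 of 12 were higher at an unadjusted p under 0.05 and none was lower, against 10% of all genes in each direction, with a median log2 fold change of 0.25. All 6 were among the 9 that passed after correction for length and GC content. Eif3e was at 82.1, 136 and 103 CPM in the control libraries and 174, 229 and 155 CPM in the heat stress libraries, a log2 fold change of 0.80 (SE 0.20, adjusted p = 0.170). Eif3m was at 63.5, 102 and 88.6 CPM in the control libraries and 136, 161 and 122 CPM in the heat stress libraries, a log2 fold change of 0.72 (SE 0.18, adjusted p = 0.170). Every heat stress library was above every control library for both genes. Eif3h followed at 128, 188 and 147 CPM in the control libraries and 217, 245 and 197 CPM in the heat stress libraries, with 0.51 (SE 0.16, adjusted p = 0.172), and again without overlap. Eif3i (0.42), Eif3k (0.35) and Eif3f (0.33) were smaller in size. Eif3a and Eif3c had the opposite sign. Eif3a was at 173, 152 and 150.1 CPM in the control libraries and 139.8, 129 and 138 CPM in the heat stress libraries, and Eif3c at 182, 139.7 and 141 CPM in the control libraries and 132, 115 and 130.1 CPM in the heat stress libraries, with log2 fold changes of -0.23 (SE 0.11, adjusted p = 0.277) and -0.29 (SE 0.13, adjusted p = 0.258). In both, every heat stress library lay below every control library, and without control replicate 1 Eif3c was at -0.16. The other subunits lay between -0.11 for Eif3b and 0.17 for Eif3g, with Eif3d at 0.03 and Eif3l at 0.11. Subunits of 1 complex thus lay on both sides of 0 in the same libraries.

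**Figure D3:**
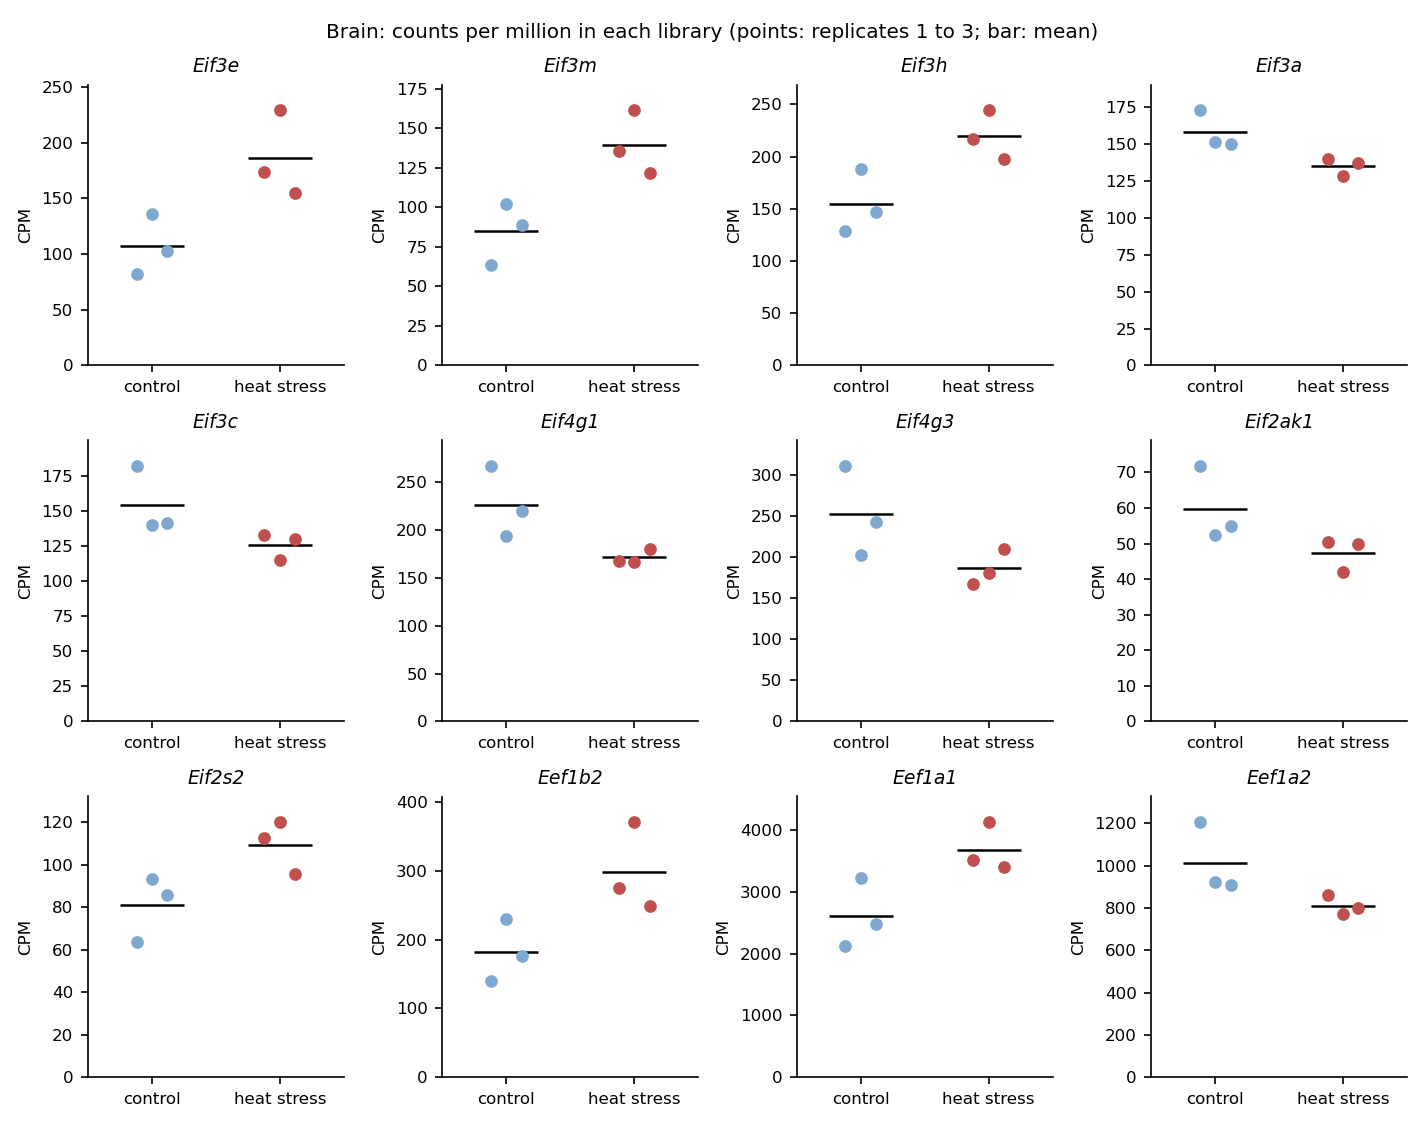
CPM in each of the 3 control and 3 heat stress brain libraries (points) with the group mean (bar) for 12 members, each on a linear axis from 0. Eif3e, Eif3m and Eif3h lie higher in all heat stress libraries, while Eif3a, Eif3c and Eif4g1 lie lower.

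Among the 13 factors of start codon selection, 12 had a log2 fold change above 0 and 6 passed an unadjusted p under 0.05, all higher, with a median of 0.27. Of all genes, 49.7% were above 0 and 10% were higher at that level. None of the 6 passed after correction for length and GC content. Eif2s3y was at 47.3, 46.3 and 50.02 CPM in the control libraries and 58.1, 69.8 and 68.5 CPM in the heat stress libraries, a log2 fold change of 0.45 (SE 0.11, adjusted p = 0.170), and its groups did not overlap. Eif2s2, the beta subunit of eIF2, was at 63.5, 93.4 and 86.0 CPM in the control libraries and 112, 120.0 and 95.7 CPM in the heat stress libraries, with 0.44 (SE 0.16, adjusted p = 0.193) and no overlap. Without control replicate 1 the value of Eif2s2 was 0.29. The alpha subunit Eif2s1 was at 0.21 and Eif2s3x at 0.27, both with overlap. Eif1a (0.35), Eif1ax (0.29), Eif5 (0.31), which triggers GTP hydrolysis by eIF2, and Eif2a (0.28) were also higher at an unadjusted p under 0.05, while Eif1 was at 0.16 and Eif5b at -0.03. After the correction Eif2s3y was at 0.10, Eif2s2 at 0.24, Eif5 at 0.18, Eif1ax at 0.16, Eif1a at 0.08 and Eif2a at 0.07. The 5 subunits of eIF2B gave a median of 0.000507 and none passed, with Eif2b3 at 0.28, Eif2b5 at 0.20, Eif2b1 at 0.000507, Eif2b4 at -0.03 and Eif2b2 at -0.12. Of the eIF2 kinases, Eif2ak1 was lower, at 71.8, 52.3 and 55.0 CPM in the control libraries and 50.3, 42.0 and 49.96 CPM in the heat stress libraries, with -0.33 (SE 0.15, adjusted p = 0.246). Its groups did not overlap, though control replicate 1 lay well above the other libraries, and without it the value was -0.18. Eif2ak2 was at 0.19 and Eif2ak4 at -0.12.

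The eIF4 factors were divided. The scaffold Eif4g1 was at 267, 194 and 219.6 CPM in the control libraries and 168, 167 and 180.4 CPM in the heat stress libraries, with -0.40 (SE 0.14, adjusted p = 0.183) and no overlap. Eif4g3 was at 311, 203 and 242 CPM in the control libraries and 167, 181 and 209.8 CPM in the heat stress libraries, with -0.44 (SE 0.17, adjusted p = 0.210), and its highest heat stress library lay above its lowest control library. Without control replicate 1 the values of Eif4g1 and Eif4g3 were -0.27 and -0.26, and after correction for length and GC content they were -0.14 and -0.14. The helicase gene Eif4a2 was higher, at 571, 789 and 673 CPM in the control libraries and 1004, 1017 and 807 CPM in the heat stress libraries, with 0.48 (SE 0.17, adjusted p = 0.186) and no overlap, and its partner Eif4b was at 0.28. Eif4a1 was at 0.27 and Eif4e at 0.26. The 4E-BPs gave -0.10 for Eif4ebp1, -0.15 for Eif4ebp2 and 0.14 for Eif4ebp3, each with overlapping groups.

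In elongation 3 of 8 genes were higher at an unadjusted p under 0.05 and none lower, against 10% of all genes in each direction, with a median of 0.28. Eef1b2, a subunit of the exchange complex that reloads eEF1A with GTP, was at 140.0, 229 and 176 CPM in the control libraries and 275, 370.4 and 249 CPM in the heat stress libraries, with 0.71 (SE 0.21, adjusted p = 0.170). Eef1e1, part of the multisynthetase complex, was at 17.2, 28.3 and 22.2 CPM in the control libraries and 39.1, 36.4 and 29.5 CPM in the heat stress libraries, with 0.64 (SE 0.19, adjusted p = 0.170). Neither had overlapping groups. Eef1a1, with the levels given above, was at 0.49 (SE 0.19, adjusted p = 0.212), and at 0.30 and no longer past the unadjusted threshold after correction for length and GC content, and the other exchange subunits Eef1g and Eef1d were at 0.36 and 0.20. Eef1a2 was lower at -0.32 (SE 0.16, adjusted p = 0.281), without overlap, and control replicate 1 again held the highest value. Without that library its log2 fold change was -0.18. Eef2 was at 0.06 and its kinase Eef2k at -0.23. Of the eIF5A and eIF6 genes none passed, with Eif5a2 at 0.32, Eif5a at 0.20 and Eif6 at 0.04. Among the modifying enzymes Eef1akmt2, a lysine methyltransferase of eEF1A, was at 0.52 (SE 0.17, adjusted p = 0.172).

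**Figure D4:**
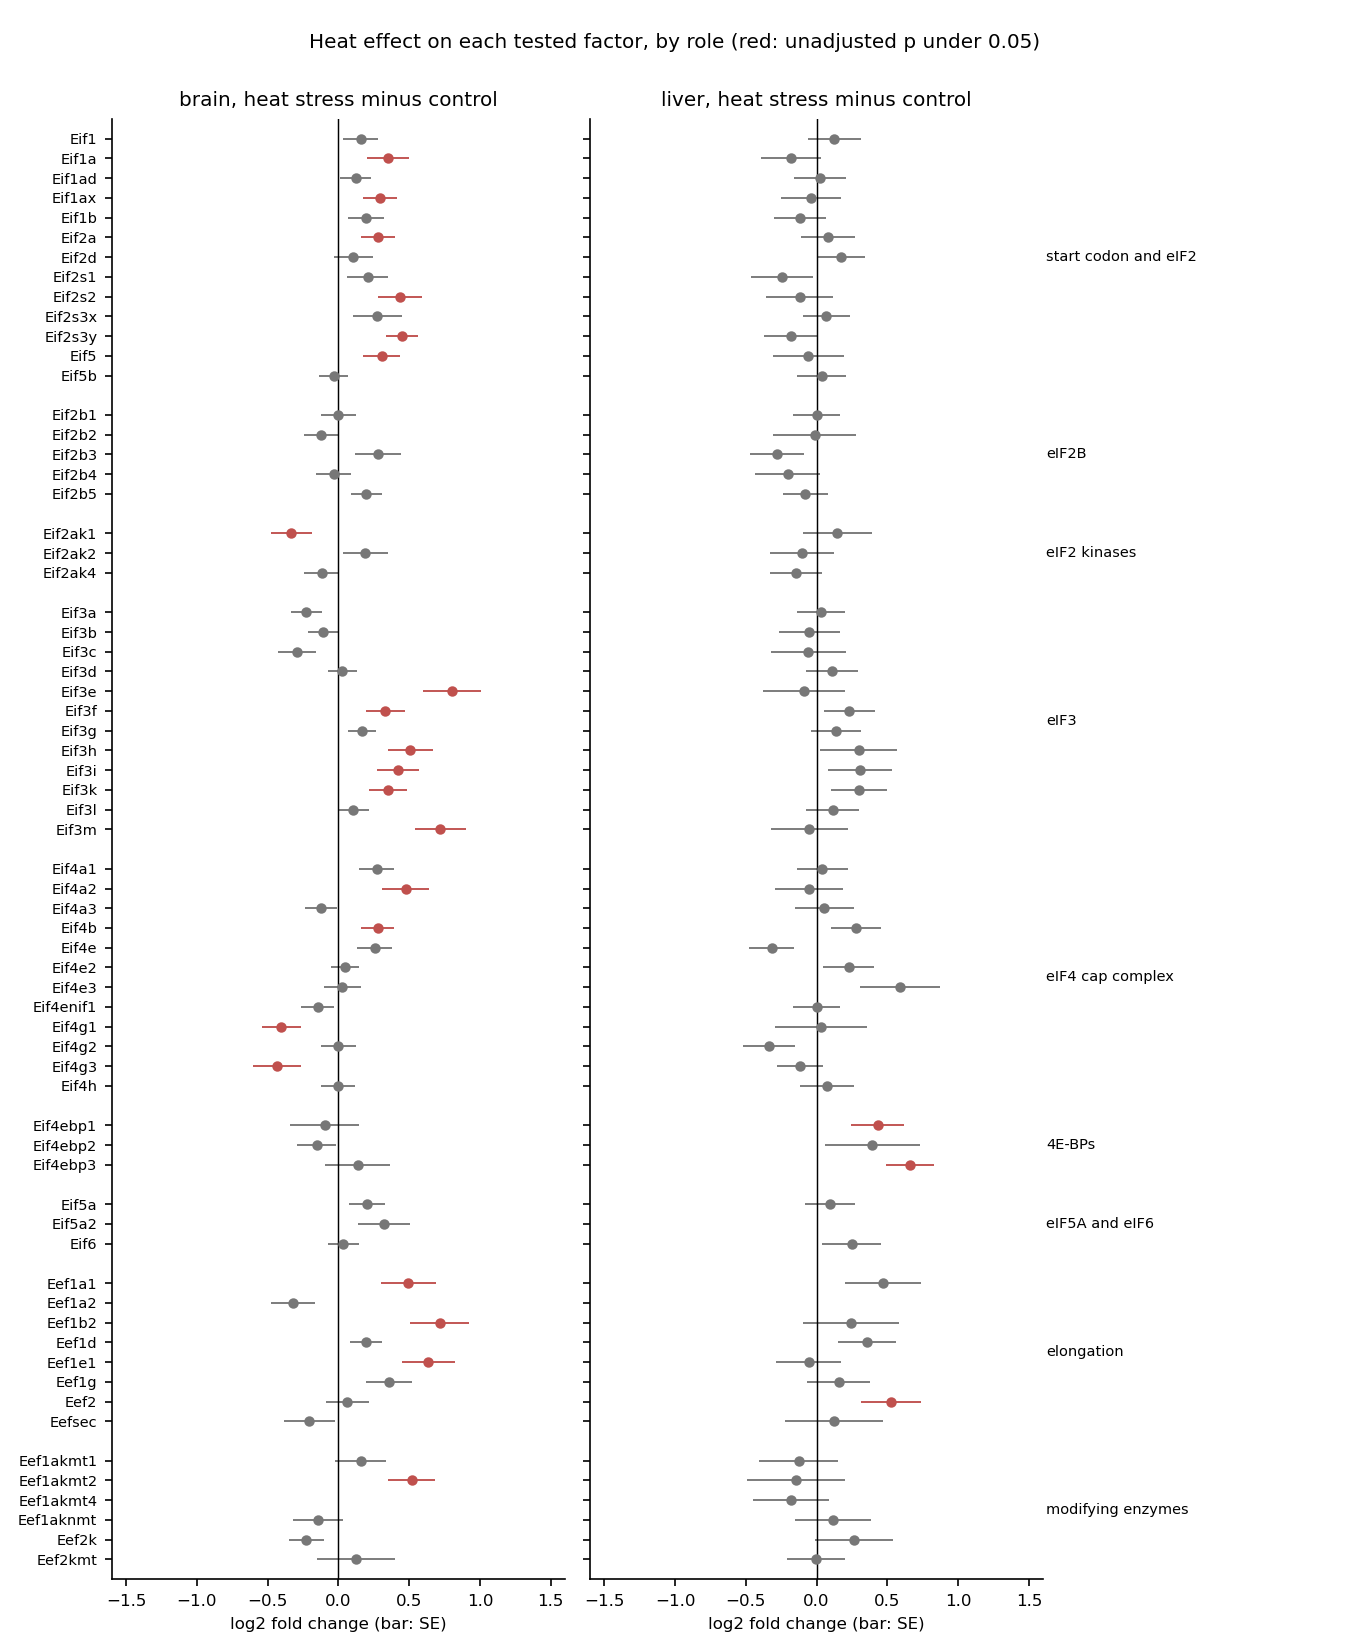
Log2 fold change of heat stress against control (horizontal axis, bars are standard errors) for each tested member, grouped by role, in brain and in liver. In brain 45 of 64 values lie above 0 and in liver 37 of 63, and no value passed the adjusted threshold.

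In liver, the heat stress group had higher mean levels of the 4E-BP genes, of Eef2 and of Eef1a1, and no member passed the adjusted threshold. By edgeR's quasi-likelihood test 0 of 63 members were called, as were 0% of 12296 genes, and the smallest adjusted p of a member was 0.465. At an unadjusted p under 0.05, 3 members were higher and 0 lower, against 2.97% and 2.87% of all genes. DESeq2 called no member, with 2 higher and 1 lower at an unadjusted p under 0.05, against 1.6% and 1.91% of all genes. The groups did not overlap in 3 members that were higher (Eif4ebp3, Eef2 and Eif4b) and 2 that were lower (Eif4e and Eif4g2), against 5.38% and 5.73% of all genes. The members thus separated no more often than genes at large in either direction. The log2 fold change was above 0 in 37 of the 63 members, against 51.8% of all genes, with a median of 0.037 for the members and 0.011 for all genes.

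Eif4ebp3 was at 12.1, 13.5 and 14.3 CPM in the control libraries and 23.2, 19.0 and 20.7 CPM in the heat stress libraries, a log2 fold change of 0.66 (SE 0.17, adjusted p = 0.465), without overlap. Eif4ebp1 was at 32.3, 37.6 and 31.5 CPM in the control libraries and 48.4, 36.4 and 52.1 CPM in the heat stress libraries, with 0.43 (SE 0.19, adjusted p = 0.846), and heat stress replicate 2 lay within the range of the controls. Eif4ebp2 was at 37.4, 15.4 and 15.8 CPM in the control libraries and 24.4, 37.0 and 29.3 CPM in the heat stress libraries, with 0.39 (SE 0.33, adjusted p = 0.947). Its highest values were those of control replicate 1 and heat stress replicate 2, the libraries with skeletal muscle transcripts. Without both of them Eif4ebp1, Eif4ebp2 and Eif4ebp3 were at 0.53, 0.77 and 0.65, with adjusted p of 0.3, 0.142 and 0.261. With a library left out Eif4ebp2 ranged from 0.18, without control replicate 2, to 0.94, without control replicate 1. The part of muscle RNA in these values was not tested.

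In elongation, Eef2 was at 1052, 734 and 747 CPM in the control libraries and 1138, 1193 and 1309.5 CPM in the heat stress libraries, with 0.52 (SE 0.21, adjusted p = 0.834) and no overlap, and without both muscle libraries it was at 0.71 (adjusted p = 0.203). Eef1a1 was at 3621, 5168 and 4897 CPM in the control libraries and 7715, 4289 and 6977 CPM in the heat stress libraries, with 0.47 (SE 0.27, adjusted p = 0.927), and heat stress replicate 2 lay within the controls. Eef1a1 was at 0.53 without both muscle libraries and ranged from 0.29 to 0.69 with a library left out. Eef1d was at 0.36 (SE 0.21, adjusted p = 0.930), at 0.50 without both muscle libraries, and from 0.17 to 0.53 with a library left out. Eef1b2 was at 0.24, Eef1g at 0.16 and Eef2k at 0.26. Among the cap factors Eif4b was higher, at 222, 177 and 190.3 CPM in the control libraries and 236, 236 and 243 CPM in the heat stress libraries, with 0.28 (SE 0.18, adjusted p = 0.930). Eif4e was lower, at 47.0, 43.1 and 46.2 CPM in the control libraries and 40.0, 34.8 and 34.5 CPM in the heat stress libraries, with -0.32 (SE 0.16, adjusted p = 0.887), and so was Eif4g2, at 487, 581 and 531 CPM in the control libraries and 471, 404 and 393 CPM in the heat stress libraries, with -0.33 (SE 0.18, adjusted p = 0.922). Eif4g2 encodes DAP5, an eIF4G-like protein that does not bind eIF4E. For each of these 3 genes the heat stress libraries lay on 1 side of all control libraries, which was no more frequent among the members than among all genes. Eif4e3 was at 0.59 (SE 0.28, adjusted p = 0.877), and from 0.39 to 0.82 with a library left out. Eif4g1 was at 0.03, Eif4a1 at 0.04 and Eif4a2 at -0.05.

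**Figure D5:**
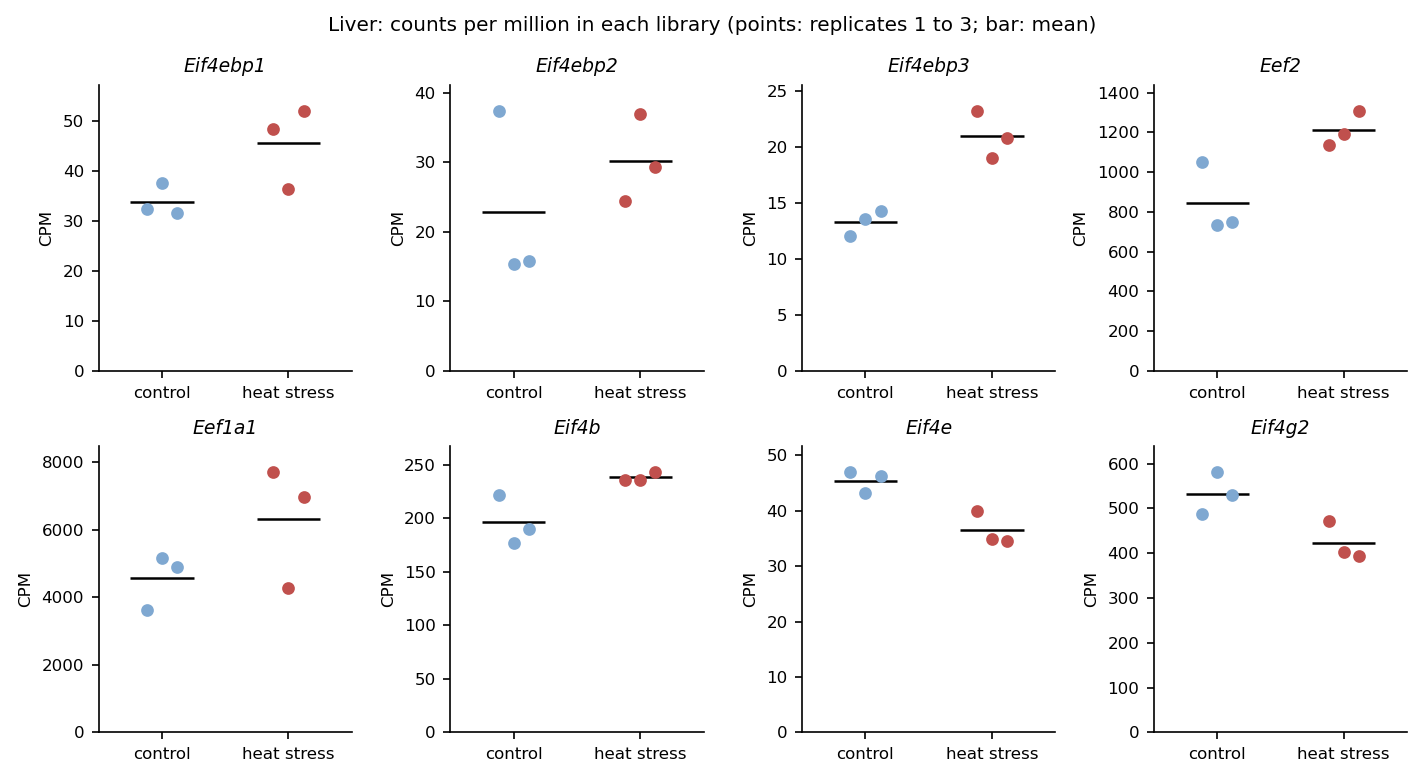
CPM in each of the 3 control and 3 heat stress liver libraries (points) with the group mean (bar) for 8 members, each on a linear axis from 0. Eif4ebp3, Eef2 and Eif4b lie higher and Eif4e and Eif4g2 lower in all heat stress libraries, while Eif4ebp2 is high in control replicate 1 and heat stress replicate 2. Such separations were no more frequent among the members than among all genes.

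The eIF2, eIF2B and eIF3 genes of liver lay between -0.28 and 0.31. Eif2s1, Eif2s2, Eif2s3x and Eif2s3y were at -0.25, -0.12, 0.07 and -0.18. With a library left out Eif2s1 ranged from -0.43 to -0.09 and Eif2s3y from -0.34 to -0.06. The eIF2B subunits were at 0.000435 (Eif2b1), -0.01 (Eif2b2), -0.28 (Eif2b3), -0.20 (Eif2b4) and -0.08 (Eif2b5), and the kinases at 0.15 (Eif2ak1), -0.10 (Eif2ak2) and -0.15 (Eif2ak4). The 12 eIF3 subunits lay between -0.09 and 0.31 with a median of 0.11, and Eif3e and Eif3m were at -0.09 and -0.05. Without both muscle libraries Eif2b4 was at 0.05. None of these genes reached an unadjusted p under 0.05, and Eif5a and Eif1 were at 0.09 and 0.12.

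The count of 3 higher members in liver depended on single libraries. It was 5 without control replicate 1, where 7.11% of all genes were higher, 1 without heat stress replicate 1 (2.7%) and 6 without heat stress replicate 2 (2.7%). It was 2 without control replicate 2 (1.82%), control replicate 3 (3.09%) or heat stress replicate 3 (1.78%). Without both muscle libraries it was 9, against 5.84% of all genes, and these were Eif4ebp1, Eif4ebp2, Eif4ebp3, Eef2, Eef1a1, Eef1d, Eif3k, Eif6 and Eefsec. With the column suffix 2nd as a covariate, 2 members were higher, against 4.3% of all genes.

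Whether the heat effect differed between the tissues was tested in a fit of all 12 libraries, which uses the same libraries as the comparisons within tissues. No member was called by edgeR's quasi-likelihood test (smallest adjusted p 0.516), against 0.00632% of all genes, and 26 of 65 members lay above 0, against 46.7%. At an unadjusted p under 0.05, 0 members were higher in liver minus brain and 6 lower, where 3.73% and 5.91% of all genes were. The 6 were Eif3e (-0.88), Eif3m (-0.77), Eef1e1 (-0.70), Eif2s3y (-0.63), Eif4e (-0.59) and Eif2b3 (-0.57). Eif3e was at 0.80 in brain and -0.09 in liver, and Eif4e at 0.26 and -0.32. The 4E-BPs lay on the other side of 0, at 0.51 for Eif4ebp1, 0.50 for Eif4ebp2 and 0.51 for Eif4ebp3, with adjusted p of 0.536, 0.705 and 0.547. Eif4ebp2 depended on single libraries, at 1.15 without liver control replicate 1, 0.25 without liver control replicate 2, 0.27 without liver control replicate 3 and 0.30 without liver heat stress replicate 2. Eif4ebp3 did so as well, at 0.33 without brain control replicate 1. The count of 6 was 2 without brain control replicate 1 (2.83% of all genes), brain heat stress replicate 1 (3.09%), liver control replicate 2 (5.14%) or liver heat stress replicate 2 (4.89%). It was 3 without brain control replicate 3 (2.98%), brain heat stress replicate 2 (2.71%) or liver heat stress replicate 3 (3.77%). It was 4 without brain heat stress replicate 3 (4.23%) or liver control replicate 3 (6.53%), and 10 without liver control replicate 1 (7.64%) or liver heat stress replicate 1 (7.34%). Without liver control replicate 1 another 8 members were higher, against 11.3% of all genes, and without both muscle libraries 9 were higher and 6 lower, against 8.07% and 6.34%. None of these differences reached an adjusted p under 0.05.

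Genes that work with these factors were counted from lists of the pathway. No gene of these lists was called in either tissue, and unadjusted p under 0.05 is used here, a level at which 10% of all genes were higher and 10% lower in brain. Of 12 genes of mTOR and cap signalling in brain, 1 was higher and 2 lower. Mtor, the kinase that phosphorylates the 4E-BPs, was at 115, 92.0 and 91.1 CPM in the control libraries and 67.3, 67.6 and 76.2 CPM in the heat stress libraries, with -0.50 (SE 0.13, adjusted p = 0.170) and no overlap, and its partner Rptor was at -0.52. Control replicate 1 held the highest value of Mtor. Values with a library left out or after correction for length and GC content are not given for Mtor and Rptor. Pdcd4, which inhibits eIF4A, was the higher one, at 0.27. Of 5 reinitiation and helicase genes, Denr (0.38) and Mcts1 (0.50), whose products act together in reinitiation, were higher in brain. Of 6 release and recycling genes, Etf1 (0.24), the release factor, was higher. Of 9 mitochondrial factors, Gfm1 (-0.29) was lower, and none of 5 poly(A)-binding genes passed.

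The integrated stress response is set off by eIF2 phosphorylation and raises transcription of a set of target genes. At an unadjusted p under 0.05, 0 of 12 tested were higher in brain and Chac1 was lower, at 8.36, 6.46 and 6.39 CPM in the control libraries and 5.72, 4.84 and 4.63 CPM in the heat stress libraries, with -0.48 (SE 0.21, adjusted p = 0.236). In liver 3 of 10 tested were higher at that level, against 2.97% of all genes, and none passed after adjustment. The list held 6 genes above 0 and 4 below. Asns, asparagine synthetase, was at 1.74, 1.63 and 2.89 CPM in the control libraries and 9.23, 3.83 and 5.44 CPM in the heat stress libraries, with 1.57 (SE 0.38, adjusted p = 0.424). Trib3, a pseudokinase, was at 7.62, 7.26 and 5.03 CPM in the control libraries and 12.6, 14.9 and 19.9 CPM in the heat stress libraries, with 1.24 (SE 0.24, adjusted p = 0.251), and Chac1, a glutathione-degrading enzyme, was at 0.968, 0.979 and 1.30 CPM in the control libraries and 2.68, 1.88 and 1.74 CPM in the heat stress libraries, with 0.96 (SE 0.35, adjusted p = 0.779). For these 3 genes every heat stress library lay above every control library. Atf4, the transcription factor that acts on these targets, was at 135, 169 and 123 CPM in the control libraries and 117, 89.0 and 125 CPM in the heat stress libraries, with -0.37 (SE 0.20, adjusted p = 0.922) and overlapping groups, and Ppp1r15b lay below its controls at -0.21. In the mTOR list of liver, Ddit4, an inhibitor of mTOR signalling, was at 8.97, 5.30 and 2.42 CPM in the control libraries and 2.46, 2.23 and 1.89 CPM in the heat stress libraries, with -1.36 (SE 0.42, adjusted p = 0.622). Control replicate 1 held its highest value, and the groups overlapped. Among 9 genes of eIF5A and eEF2 modification, Dnajc24 in brain was at 0.48 and Dph2 in liver at -0.76, both of which serve diphthamide synthesis on eEF2. None of 5 release, 5 poly(A)-binding, 5 reinitiation and 9 mitochondrial genes tested passed in liver.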

How the data were processed

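RNA of brain and liver was enriched on oligo-dT beads and sequenced from stranded, paired-end libraries. The authors deposited raw read counts per gene symbol, 25239 in all, with a column per library. The submitters' processing notes name FastQC 0.11.9, Trimmomatic 0.39, HISAT2 2.2.1, featureCounts of Subread 2.0.1, DESeq2 1.22.2 and mm10, and the methods also describe a pipeline with Tophat2 and HTSeq. Which of them made the counts, and whether strand or shared reads entered the counting, is not given in the sources used here. Near-identical genes (Eef1a1 and its pseudogenes, Eif2s3x and Eif2s3y, Eif1 and Eif1b, Eif4a1 and Eif4a2) are therefore uncertain. Deposited tables of the authors' comparisons hold log2 fold changes and p-values per gene and were not used.

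The members, lists and tests were chosen with earlier results of these data known. Named were the members of the main complexes, the 6 tested members with the smallest unadjusted p in each direction and the paralog pairs, and the pathway genes named were chosen after their values were seen. Counts were fitted in R 4.3.3 with edgeR 4.0.16 (quasi-likelihood test, robust, TMM, filterByExpr at 10 counts and a total of 15, Benjamini-Hochberg adjustment over all genes tested). A gene was called at an adjusted p under 0.05. Standard errors were obtained by dividing the log2 fold change by the root of F. Brain and liver were fitted alone for heat stress, and all 12 libraries in 4 groups for tissue and for the difference of the heat effect. CPM use TMM factors within a tissue, or over all libraries where a shared scale is named. Per-kilobase levels and the length and GC correction used the longest transcript in GENCODE M21 on GRCm38, which is mm10, found for 69 of 72 members. DESeq2 1.42.0, other scalings, the correction, a replicate block and each library left out were alternatives. Scripts were tested on simulated counts. The methods give 3 mice a group, but no source used here ties each library to its own mouse, and p-values measure the spread between these libraries. A protein table was not used here.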

Additional observations from a re-analysis of the deposited data

How the results depend on the processing

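No member was called for heat stress in liver or for the difference between tissues under any alternative run, and in brain DESeq2 called 4 members higher. In brain the 18 higher and 3 lower members at an unadjusted p under 0.05 became 9 and 0 with the length and GC correction and 7 and 1 in a fit of all 12 libraries (5.04% and 4.1% of all genes), and ranged from 6 to 23 and from 0 to 5 with a library left out. In liver the 3 higher became 1 with the replicate block (1.56% of all genes), 9 without both libraries with skeletal muscle transcripts (5.84%), and from 1 to 6 with a library left out. The 0 lower became 1 with DESeq2 (1.91% of all genes) and 2 in a fit of all 12 libraries (5.45%), and stayed at 0 with a library left out. Eif2b4 turned from -0.20 to 0.054 without both muscle libraries. For the difference between tissues the 0 higher became 1 with DESeq2 (3.89% of all genes), 3 with the length and GC correction (3.85%) and 9 without both muscle libraries (8.07%), and 0 to 8 with a library left out. The 6 lower became 3 with the replicate block (4.27% of all genes) and 2 with the correction (4.93%), and 2 to 10 with a library left out. For control brain against control liver the 8 higher and 40 lower became 28 and 9 with library size alone (65% and 19.8% of all genes), 4 and 29 with a log2 fold change past 1 also required (37.2% and 27.5%), and 7 to 11 and 39 to 42 with a library left out. The length and GC correction turned Eif4g3 to -0.71, Eef2k to -0.36 and Eif2ak4 to -0.89, each called lower in brain. The cause of these changes was not tested. Alternatives chosen after seeing the data were library size alone, upper-quartile factors in the heat comparisons, the omission of both muscle libraries and the suffix covariate.

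The control and heat stress groups were different mice, so replicate numbers do not pair libraries between these groups. No source used here pairs the brain and liver libraries within a group, and the fits of all 12 libraries treat them as independent. Same-numbered control and heat stress libraries correlated in their deviations from the group means by -0.289, 0.19 and -0.2 in brain and by -0.584, -0.509 and -0.0891 in liver, control brain and liver by 0.218, 0.181 and 0.0938, and heat stress brain and liver by 0.0226, -0.12 and 0.0074. Each control brain library correlated best with the control liver library of its own number. In the heat stress group this held for brain replicate 1 and not for replicates 2 and 3. The labels state no pairing, and whether brain and liver libraries share mice was not tested. The replicate block, which within a tissue groups different mice by number alone, gave 16 higher and 4 lower in brain (9.84% and 9.42% of all genes). With 3 libraries a group an exact permutation test of a single value cannot go below 0.1.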
